A study of Arabidopsis thaliana with 625 samples.

Results

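ATMYC1 and the 9 genes that act with it in trichome patterning were followed in single cells of Arabidopsis thaliana seedlings. The members were taken by name and locus from both Smart-seq2 expression tables, as 10 of the 32833 gene rows: ATMYC1 (AT4G00480), GL3 (AT5G41315), EGL3 (AT1G63650), TTG1 (AT5G24520), GL1 (AT3G27920), MYB5 (AT3G13540), MYB23 (AT5G40330), TRY (AT5G53200), CPC (AT2G46410) and GL2 (AT1G79840). They were picked with ATMYC1 already known to be higher in the TMMp line of these tables, so every comparison of the members between the lines is a description and carries no test. Tests were kept to comparisons among cells within the TMMp line, apart from that difference between the lines. The members and gene lists were still chosen with earlier results of these data known.

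Cells came from aerial tissue of seedlings at 10 days post-germination and were sorted from 2 transgenic reporter lines. The TMMp line carries TMMp::TMM-YFP, a YFP fusion to TMM under the promoter of that stomatal lineage receptor gene, and gave 478 cells on 7 plates. The ATML1p line carries ATML1p::YFP-RCI2A, a membrane-targeted YFP under the promoter of an epidermal homeodomain gene, and gave 143 cells on 5 plates. Each line was collected in 2 pools, and 4 further samples made with 10X chemistry were not analysed here. No label ties a plate to separate plants, and 5 of the TMMp plates share pool 2, so p-values over plates measure only the spread between plates. Plate and line cannot be told apart.

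Trichome and root hair patterning rest on a complex in which a basic helix-loop-helix (bHLH) protein is joined by an R2R3 MYB activator and the WD40-repeat protein TTG1. The complex turns on GL2, which carries out the fate, and also small R3 MYB proteins that move to neighbouring cells and displace the activator from the bHLH protein. ATMYC1, GL3 and EGL3 are related bHLH members, and stomatal fate in the same epidermis is set by another group of bHLH proteins, SPCH, MUTE and FAMA, with their partners SCRM and SCRM2.

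Values are in TPM, transcript abundance scaled for gene length and library size, and a gene was called detected in a cell at 1 TPM or more. Cells held a median of 2777 detected genes in the TMMp line and 3179 in the ATML1p line, with plate medians of 2455 to 3664 in the TMMp line and 1311 to 3391 in the ATML1p line. TPM values do not give read depth, so detected genes stand in for it, and a gene listed at 0 in a cell may have been missed. TMM itself was found in 90.2% of TMMp cells, against 11.9% of the cells of the ATML1p line, and the TMM reading of TMMp cells can include the transgene. The lines thus held different mixtures of cells, whose part in any difference between the lines was not tested.

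ATMYC1 was found in a minority of TMMp cells, on every TMMp plate, and in 1 ATML1p cell. It was detected in 57 of 478 TMMp cells, which is 11.9% (95% exact interval 9.16 to 15.2%), and in 1 of 143 ATML1p cells, which is 0.699% (0.0177 to 3.83%). Intervals cover the counting of cells only. On the TMMp plates the share of cells with ATMYC1 was 13.0% on TMM-1, 19.2% on TMM-2, 12.7% on TMM3, 9.21% on TMM4, 6.15% on TMM5, 13.0% on TMM6 and 9.52% on TMM7. On the ATML1p plates it was 3.03% on ML1-6 and 0 on ML1, ML2, ML1-5 and ML1-7. The plate ranges of the lines did not overlap. The mean ATMYC1 level over all cells of a plate was 44.2, 40.2, 61.3, 25.1, 32.5, 35.8 and 28.7 TPM on the TMMp plates in the same order, against 2.30 TPM on ML1-6 and 0 on the other ATML1p plates. Averaged over pools, it was 39.2 ± 4.21 TPM in the TMMp line and 0.375 ± 0.531 TPM in the ATML1p line (SD, n = 2 pools each), a difference of 4.92 in log2(TPM + 1). Leaving out plate TMM-2, which had the most detected genes per cell and the highest share, gave 10.6% of TMMp cells.

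**Figure D1:**
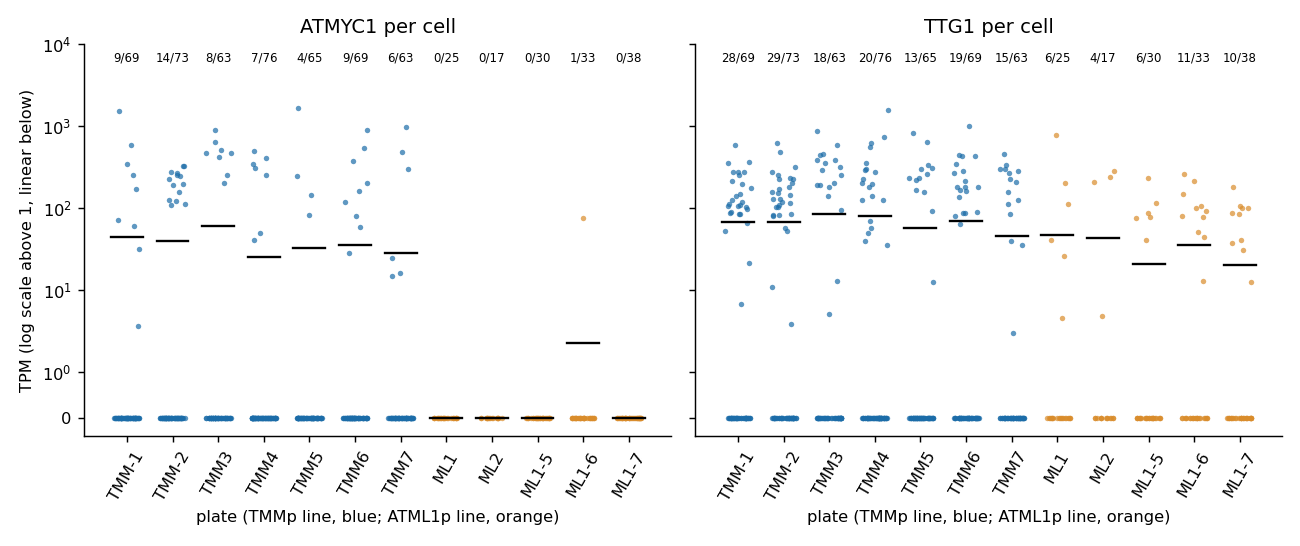
Level of ATMYC1 (left) and TTG1 (right) in each cell, by plate, with TMMp plates in blue and ATML1p plates in orange; black lines are plate means over all cells and the fractions are cells detected over cells measured. ATMYC1 was detected on all 7 TMMp plates and on 1 ATML1p plate, while TTG1 was detected on all 12 plates.

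Where ATMYC1 was detected it was seldom near the threshold. The 57 cells spanned 3.67 to 1642 TPM with a median of 247 TPM and quartiles of 111 and 407 TPM, and 44 of them had 100 TPM or more. No cell held a value above 0 and under 1 TPM. Detection was more frequent in cells with more genes seen. ATMYC1 was found in 5.66% of the TMMp cells with the fewest detected genes (384 to 2339), in 11.3% of the middle group (2343 to 3440) and in 18.8% of the group with the most (3448 to 10726). Among cells with at least the 3688 detected genes that were the median of ATMYC1 cells, 29 of 139 TMMp cells had ATMYC1 (20.9%, interval 14.4 to 28.6%), against 1 of 58 ATML1p cells (1.72%, 0.0436 to 9.24%).

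The ATML1p cell with ATMYC1 resembled a part of the TMMp cells with ATMYC1 in the stage genes it held. Of those 57 TMMp cells, 24 held SPCH and 21 held BASL. The ATML1p cell had 75.8 TPM of ATMYC1 and 7597 detected genes, against a median of 3688 in the TMMp cells with ATMYC1. It was also an SPCH cell, with SPCH at 174 TPM, BASL at 251 TPM, TMM at 929 TPM and PDF1 at 4780 TPM. Of the members it also held EGL3 at 131 TPM and TTG1 at 50.9 TPM, and of the small inhibitors ETC2 at 62.5 TPM. Among cells with TMM detected, ATMYC1 was found in 53 of 431 TMMp cells (12.3%, interval 9.35 to 15.8%) and in 1 of 17 ATML1p cells (5.88%, 0.149 to 28.7%). With 17 such ATML1p cells the share in that line is known only within this wide interval.

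ATMYC1 lies at chr4:216812-219926 on the minus strand of the RefSeq TAIR10.1 assembly, with 3 annotated transcripts of 7 to 9 exons. The expression tables hold no coordinates, and the submitters' processing notes name TAIR10. The 300 bases before its annotated start, chr4:219927-220226, overlap no other annotated gene. They are shown beside the same window of BASL, the listed stage gene whose level was most correlated with ATMYC1 over cells (chr5:24489837-24490136, minus strand), and of TCL2, the pathway gene most correlated with it (chr2:12965724-12966023, minus strand). All 3 are written 5′ to 3′ on the gene's strand, and capitals mark every match on either strand to the E-box CANNTG, the core bound by bHLH proteins, or to the L1 box (TAAATGCA or TAAATGTA), an element of epidermal promoters bound by homeodomain proteins such as ATML1.
ATMYC1: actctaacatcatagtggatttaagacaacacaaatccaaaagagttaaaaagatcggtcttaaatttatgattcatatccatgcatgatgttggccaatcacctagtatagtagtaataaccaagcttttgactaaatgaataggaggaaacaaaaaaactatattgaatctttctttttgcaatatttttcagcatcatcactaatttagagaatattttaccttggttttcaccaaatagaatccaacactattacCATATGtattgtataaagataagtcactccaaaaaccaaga
BASL: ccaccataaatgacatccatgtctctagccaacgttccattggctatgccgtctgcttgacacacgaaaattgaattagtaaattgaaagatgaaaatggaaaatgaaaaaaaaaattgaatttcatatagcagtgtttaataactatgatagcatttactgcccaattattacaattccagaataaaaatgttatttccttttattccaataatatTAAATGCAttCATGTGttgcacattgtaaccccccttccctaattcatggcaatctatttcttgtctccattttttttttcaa
TCL2: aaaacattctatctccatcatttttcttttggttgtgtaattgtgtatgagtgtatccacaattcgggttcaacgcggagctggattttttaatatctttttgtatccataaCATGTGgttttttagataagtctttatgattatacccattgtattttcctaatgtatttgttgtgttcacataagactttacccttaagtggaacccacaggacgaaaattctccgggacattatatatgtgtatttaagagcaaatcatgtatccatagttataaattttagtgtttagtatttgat
Each window held 1 E-box, CATATG in ATMYC1 and CATGTG in BASL and in TCL2. The BASL window also held 1 L1 box, TAAATGCA. The ATMYC1 and TCL2 windows held no L1 box, and none of the 3 held the G-box CACGTG, whose letters also match the E-box. Of the 300-base windows before 27443 protein-coding genes of the nuclear chromosomes, 61.9% held an E-box, 5.51% an L1 box and 7.09% a G-box. A match is a run of letters and not a shown binding site.

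The other bHLH members were rare, and nearly all their TMMp cells were ATMYC1 cells. GL3, the main bHLH regulator of trichome initiation, was detected in 3 of 57 TMMp cells with ATMYC1 and 0 of 421 TMMp cells without it. The GL3 levels were 46.0, 29.3 and 4.80 TPM, on plates TMM4, TMM6 and TMM6, and GL3 was listed at 0 in all 143 ATML1p cells. EGL3, which overlaps with GL3 in function, was detected in 4 of 57 TMMp cells with ATMYC1 and 1 of 421 without it, and in 2 of 143 ATML1p cells. Its levels in the ATMYC1 cells were 154, 214, 56.1 and 174 TPM, against 243 TPM in the TMMp cell without ATMYC1. That last cell held SPCH at 251 TPM and BASL at 5.18 TPM. Together, GL3 or EGL3 was present in 7 of 57 cells with ATMYC1 (12.3%) and 1 of 421 without (0.238%), and in the other ATMYC1 cells ATMYC1 was the sole detected member of this bHLH group.

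TTG1, the WD40 protein shared by trichome, root hair and pigment complexes, was the only partner found widely. It was detected in 142 of 478 TMMp cells, with plate shares of 20.0 to 40.6%, and in 37 of 143 ATML1p cells, with plate shares of 20.0 to 33.3%, so the plate ranges overlapped. Its mean level over pools was 68.0 ± 0.961 TPM in the TMMp line and 35.6 ± 13.9 TPM in the ATML1p line (SD, n = 2 pools each). Within the TMMp line it was detected in 21 of 57 cells with ATMYC1 (36.8%, interval 24.4 to 50.7%) and 121 of 421 without it (28.7%, 24.5 to 33.3%). Cells with ATMYC1 had more detected genes, a median of 3688 against 2682, so each was compared with the 3 cells of its plate without ATMYC1 that were nearest in detected genes. In those matched cells the TTG1 share was 39.2%. TTG1's mean log2(TPM + 1) lay between 0.96 and 3.82 on the 7 plates in cells with ATMYC1 and between 1.21 and 4.31 in matched cells without it. The difference was -0.28 ± 0.51 (SE, 7 plates; limma adjusted p = 0.808), higher in cells with ATMYC1 on 4 of 7 plates. The sign turned, to 0.24 (adjusted p = 0.769), when all cells without ATMYC1 on a plate were used, and to 0.01 (adjusted p = 0.995) without plate TMM3. ATMYC1 levels were alike with and without TTG1, with medians of 247 TPM in the 21 cells that had it and 239 TPM in the 36 that did not.

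The R2R3 MYB members were close to absent. GL1, the activator of leaf trichomes, was detected in 1 TMMp cell, an ATMYC1 cell on plate TMM4, at 6.19 TPM, and in no ATML1p cell. MYB5, which acts in trichome and seed coat cells, was detected in 0 of 57 TMMp cells with ATMYC1 and 4 of 421 without it, and in 2 of 143 ATML1p cells. MYB23, a close relative of GL1, was listed at 0 in all 478 TMMp cells, which allows a share of up to 0.769% by the exact interval, and was detected in 4 of 143 ATML1p cells at 45.2, 62.4, 58.7 and 92.9 TPM. None of the MYB5 or MYB23 cells of either line had ATMYC1 or SPCH.

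The R3 MYB inhibitors TRY and CPC and the target gene GL2 were as rare. TRY, which keeps neighbouring cells from becoming trichomes, was detected in 2 of 57 TMMp cells with ATMYC1, at 13.6 and 126 TPM, in 0 of 421 without it and in 1 ATML1p cell at 20.8 TPM. CPC, its relative best known from root hairs, was detected in 0 of 57 TMMp cells with ATMYC1 and 9 of 421 without it (2.14%, interval 0.982 to 4.02%), and in 2 ATML1p cells. For CPC the 57 cells with ATMYC1 allow a share of up to 6.27%, so its absence from them was not a detectable difference. GL2, the homeodomain gene that the complex activates, was detected in 1 of the 621 Smart-seq2 cells, a TMMp cell with ATMYC1 on plate TMM-2, at 43.2 TPM. That cell had 10726 detected genes, the most of any TMMp cell.

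Seen cell by cell, transcripts of a bHLH member, TTG1 and GL1, MYB5 or MYB23 were together in 1 cell, with ATMYC1 as the bHLH member. That cell, on plate TMM4, held ATMYC1 at 500 TPM, TTG1 at 141 TPM and GL1 at only 6.19 TPM. No TMMp or ATML1p cell held GL3 or EGL3 together with TTG1 and any of GL1, MYB5 or MYB23. TTG1 and any of these R2R3 MYB genes were together in 1 of 57 TMMp cells with ATMYC1, 1 of 421 without it and 2 of 143 ATML1p cells. Of the 57 cells with ATMYC1, 32 (56.1%) held none of the other 9 members, against 291 of 421 without ATMYC1 (69.1%). These groups were not matched on detected genes. For TTG1, the most frequent of the 9, the share was 36.8% in cells with ATMYC1 and 39.2% in matched cells. GL3, EGL3, GL1, TRY or GL2, a set put together after their cells were seen, was present in 11 of 57 cells with ATMYC1 and 1 of 421 without it. MYB5 and CPC, outside that set, ran the other way, with 0 of 57 cells each against 4 and 9 of 421. Each of these genes was found in few cells, and a gene listed at 0 may have been missed. An absence in a cell thus says little about that cell.

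**Figure D2:**
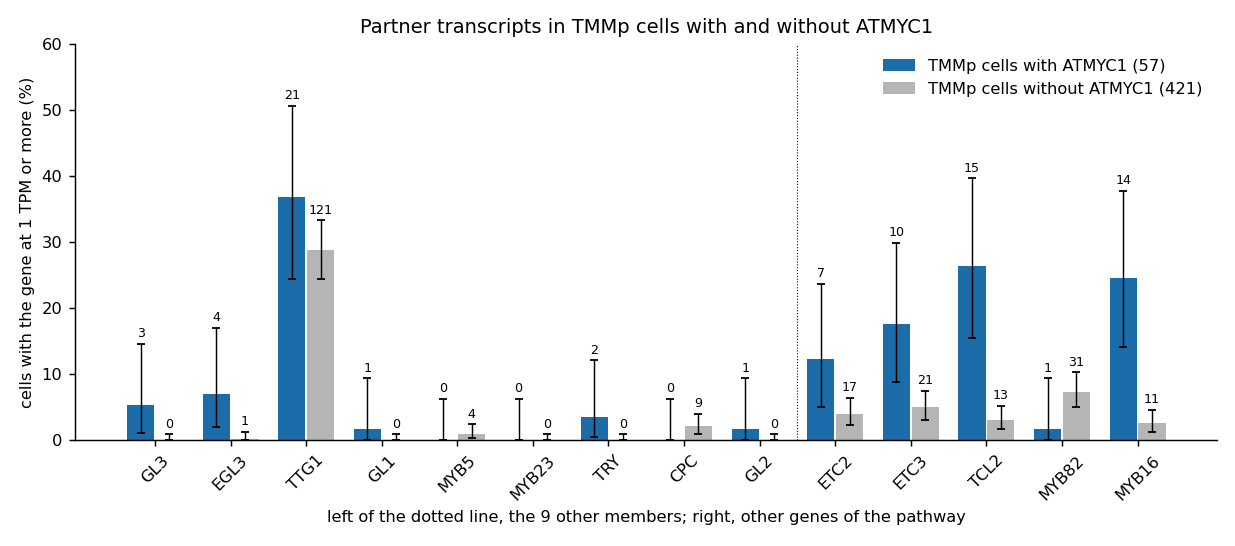
Share of TMMp cells in which each gene was detected, for the 57 cells with ATMYC1 (blue) and the 421 without (grey), with 95% exact intervals and cell counts above the bars. Of the 9 other members only TTG1 exceeds 10% of cells in either group; among the other pathway genes, TCL2 is in 15 and MYB16 in 14 of the 57 cells.

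Other genes of the trichome and anthocyanin pathway added 2 that were called, TCL2 and MYB16. Both met the gene filter only through the cells with ATMYC1. A fit across the 13175 genes that 5% or more of TMMp cells held compared ATMYC1 cells with their matched cells, plate by plate, and called 325 genes higher (2.47%) and 372 lower (2.82%), 5.29% in either direction, at an adjusted p under 0.05. The counts moved with the settings. With every gene detected in any TMMp cell tested, 0 genes were called (lowest limma adjusted p = 0.0584, 2981 genes at an unadjusted p under 0.05), so no call named here was kept under that setting. There were 119 higher and 149 lower genes without plate TMM-2, 193 and 229 without TMM3, 199 and 220 without TMM4, 54 and 76 without pool 1, and 29 and 57 without pool 2. Against all cells without ATMYC1, 1355 genes were higher and 446 lower. Of the 27 other pathway genes, 7 were tested, 2 were higher and none was lower. The median difference of those 7 was 0.75, against 0.04 for all genes tested. TCL2, MYB16, ETC2 and ETC3 were in 3.09%, 2.61%, 4.04% and 4.99% of cells without ATMYC1. They passed the 5% filter only through the cells with it. The filter thus favoured a positive median, which is no result about the pathway. Of the 9 other members only TTG1 could be tested, and it was not called.

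TCL2, an R3 MYB inhibitor of trichome formation, was detected in 15 of 57 TMMp cells with ATMYC1 and 13 of 421 without it, and in 4 of 143 ATML1p cells. Its mean log2(TPM + 1) in cells with ATMYC1 was 1.69, 1.72, 2.13, 0.97, 4.12, 1.60 and 2.69 on plates TMM-1 to TMM7, against 0.12, 0.28, 0.16, 0, 0, 0 and 0.88 in matched cells. The groups did not overlap over plates. The difference was 1.93 ± 0.41 (SE, 7 plates; limma adjusted p = 0.00297), higher on 7 of 7 plates. Leaving out pool 2, with 2 plates left, gave 1.50 (adjusted p = 0.246), and with every detected gene tested the adjusted p was 0.132. TCL2 was in 3.09% of cells without ATMYC1 and passed the 5% filter only through cells with it. The filter thus favoured this direction, and the adjusted p under it is a description only.

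MYB16, a MIXTA-type R2R3 MYB that controls cuticle and cell outgrowth, was detected in 14 of 57 TMMp cells with ATMYC1 and 11 of 421 without it, and in 3 of 143 ATML1p cells. Its mean log2(TPM + 1) in cells with ATMYC1 was 1.04, 2.59, 0.96, 0.88, 0, 2.79 and 1.16 on plates TMM-1 to TMM7, against 0 on 6 plates and 0.26 on TMM-2 in matched cells. The difference was 1.31 ± 0.31 (SE, 7 plates; limma adjusted p = 0.00795), higher on 6 of 7 plates, with plate TMM5 at 0 in both groups. It was 1.16 without pool 1 (adjusted p = 0.112) and 1.69 without pool 2 (adjusted p = 0.176), and with every detected gene tested the adjusted p was 0.189. MYB16 was in 2.61% of cells without ATMYC1, so the limit given for TCL2 holds for it too.

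The other pathway genes tested did not pass. ETC3 and ETC2, further R3 MYB inhibitors, differed by 0.75 ± 0.32 (adjusted p = 0.171) and 0.37 ± 0.28 (adjusted p = 0.468). UPL3, a ubiquitin ligase that targets GL3 and EGL3, differed by 0.76 ± 0.56 (adjusted p = 0.461), and GEM, a modulator of GL2 expression, by -0.56 ± 0.48 (adjusted p = 0.539). MYB82, an R2R3 MYB that takes part in trichome formation, was in 1 of 57 cells with ATMYC1 and 31 of 421 without it and differed by -0.36 ± 0.20 (adjusted p = 0.297). Any of the 5 small inhibitors ETC1, ETC2, ETC3, TCL1 and TCL2 was present in 26 of 57 TMMp cells with ATMYC1 (45.6%) and 44 of 421 without it (10.5%). These groups were not matched on detected genes. ETC1 and TCL1 were listed at 0 in all TMMp cells. ETC2, ETC3 and TCL2 were in 12.3%, 17.5% and 26.3% of cells with ATMYC1 and 7.60%, 5.26% and 3.51% of matched cells. Each passed the 5% filter only through cells with ATMYC1, and ETC2 and ETC3 were not called. The other 20 pathway genes were under the 5% filter, and 11 of them were listed at 0 in all TMMp cells. HDG12 and HDG11, homeodomain genes of trichome branching, were in 9 and 7 of 57 cells with ATMYC1, against 12 and 9 of 421 without. ZFP8 and GIS2, zinc finger genes of trichome initiation, were in 7 and 3 of 57 cells with ATMYC1, against 11 and 0 of 421 without. SPL9, SIM and MYB106 were in 2, 1 and 1 of 57 cells with ATMYC1, against 1, 3 and 2 of 421 without. TTG2 and ZFP5 were in 0 of 57 cells with ATMYC1, against 3 and 2 of 421 without.

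Several early lineage transcripts were higher in ATMYC1 cells and some guard mother cell transcripts were lower. Of 21 listed stomatal lineage and epidermal genes, 18 were tested, 4 were higher in ATMYC1 cells, 2 were lower (2.47% and 2.82% over all genes) and 10 had an unadjusted p under 0.05, against 2691 of the 13175 genes. Their median difference was 0.20, beside 0.04 for all genes. The higher genes were BASL and SPCH of the early, asymmetrically dividing lineage, SOL1 and the protodermal gene PDF1, and the lower ones were FAMA and EPF1 of the guard mother cell stage. CYCD7;1, MYB88 and SCAP1 fell under the filter, and BASL passed it only through the cells with ATMYC1.

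BASL, the polarity protein of asymmetric divisions, was detected in 21 of 57 TMMp cells with ATMYC1 and 13 of 421 without it. Its mean log2(TPM + 1) in cells with ATMYC1 was 2.23, 3.22, 3.01, 2.41, 4.37, 0.70 and 3.07 on plates TMM-1 to TMM7, against 0.59 on TMM-1 and TMM-2 and 0 on the other plates in matched cells. Every plate of the ATMYC1 cells lay above every plate of the matched cells. The difference was 2.55 ± 0.45 (SE, 7 plates; limma adjusted p = 0.000371), higher on 7 of 7 plates, and without pool 2 it was 2.13 (adjusted p = 0.194). BASL was in 3.09% of cells without ATMYC1 and passed the 5% filter only through cells with it. The filter thus favoured this direction, and the adjusted p under it is a description only. With every detected gene tested, which lifts that filter, the adjusted p was 0.0940. Read the other way, 21 of the 34 TMMp cells with BASL had ATMYC1 (61.8%, interval 43.6 to 77.8%). The same held for 15 of 28 cells with TCL2 (53.6%), 14 of 25 with MYB16 (56.0%) and 24 of 77 with SPCH (31.2%).

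SPCH, the bHLH gene that starts the lineage, was detected in 24 of 57 TMMp cells with ATMYC1 (42.1%) and 53 of 421 without it (12.6%), with 18.1% in matched cells. Its mean log2(TPM + 1) in cells with ATMYC1 was 2.15, 5.12, 2.95, 3.32, 4.21, 1.16 and 1.49 on plates TMM-1 to TMM7, against 0.94, 1.95, 0.53, 0.39, 0.46, 0.85 and 1.11 in matched cells. The plate ranges overlapped. The difference was 2.03 ± 0.49 (SE, 7 plates; limma adjusted p = 0.00901), higher on 7 of 7 plates. It was 1.83 (adjusted p = 0.0536) without plate TMM-2, the plate with the most ATMYC1 cells, 1.96 (adjusted p = 0.105) without pool 1 and 2.20 (adjusted p = 0.238) without pool 2, and its adjusted p was 0.173 with every detected gene tested. BASL and SPCH were together in 19 of 57 cells with ATMYC1 and 9 of 421 without.

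PDF1, a marker of the outermost cell layer, was detected in 51 of 57 TMMp cells with ATMYC1 and 227 of 421 without it. Its mean log2(TPM + 1) ran from 7.39 to 10.60 over plates in cells with ATMYC1 and from 4.53 to 7.51 in matched cells. It differed by 3.12 ± 0.55 (SE, 7 plates; limma adjusted p = 0.000371), higher on 7 of 7 plates, with an adjusted p of 0.126 when every detected gene was tested. SOL1, a CXC-domain protein that acts at stage transitions of the lineage, differed by 1.94 ± 0.54 (adjusted p = 0.0235). SOL1 lost its call without plate TMM-2 (1.97, adjusted p = 0.0733), TMM3 (1.85, adjusted p = 0.0694), TMM4 (1.89, adjusted p = 0.0601) or TMM6 (1.79, adjusted p = 0.0694), and without pool 1 (2.13, adjusted p = 0.117) or pool 2 (1.46, adjusted p = 0.549), and with every detected gene tested (adjusted p = 0.0684).

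FAMA, the bHLH gene of the guard mother cell stage, was in 3 of 57 TMMp cells with ATMYC1 and 52 of 421 without it. It fell by 1.44 ± 0.39 (SE, 7 plates; limma adjusted p = 0.0221), lower on 7 of 7 plates. The FAMA call was lost without plate TMM-2 (-1.37, adjusted p = 0.0889), TMM3 (-1.45, adjusted p = 0.0594) or TMM4 (-1.23, adjusted p = 0.0570), without pool 1 (-1.45, adjusted p = 0.177) or pool 2 (-1.41, adjusted p = 0.337), against all cells without ATMYC1 (-0.63, adjusted p = 0.148) and with every detected gene tested (adjusted p = 0.133). EPF1, a secreted spacing peptide, was in 1 of 57 cells with ATMYC1 and 49 of 421 without it. Its mean log2(TPM + 1) was 0.07 in cells with ATMYC1 and 1.27 in matched cells (SE of the difference 0.29, 7 plates; limma adjusted p = 0.00982), higher on 0 of 7 plates. Without pool 1 EPF1 differed by -0.95 (adjusted p = 0.129) and without pool 2 by -1.83 (adjusted p = 0.186), and its adjusted p was 0.149 with every detected gene tested.

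The remaining stage genes did not pass. SCRM2 and SCRM, the bHLH partners of SPCH, differed by 1.22 ± 0.49 (adjusted p = 0.136) and 0.22 ± 0.61 (adjusted p = 0.878). EPF2, the early lineage peptide, differed by 1.14 (adjusted p = 0.108), POLAR, a polarity protein, by 0.71 (adjusted p = 0.465) and the epidermal homeodomain genes ATML1 and HDG2 by 1.03 (adjusted p = 0.251) and -0.29. MUTE, the gene of the middle step, differed by -0.39 (adjusted p = 0.506), the protease gene SDD1 by -0.86 (adjusted p = 0.0851) and the guard cell gene MYB60 by -1.02 (adjusted p = 0.207). TMM differed by 0.01 ± 0.45 (adjusted p = 0.992), the cell cycle kinase gene CDKB1;1 by -0.16 and FLP, which limits guard mother cell division, by 0.18.

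**Figure D3:**
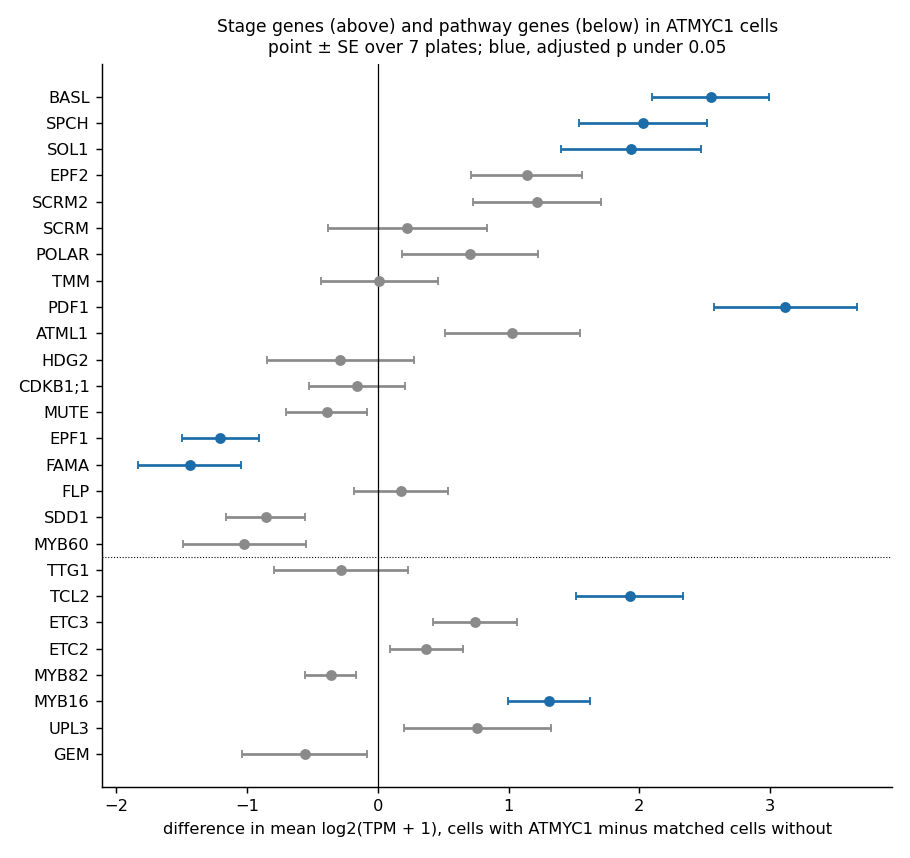
Difference in mean log2(TPM + 1) between TMMp cells with ATMYC1 and matched cells without it, for the stage genes tested (above the dotted line) and for TTG1 and the pathway genes tested (below), with SE over 7 plates. Blue points have an adjusted p under 0.05: BASL, SPCH, SOL1, PDF1, TCL2 and MYB16 lie right of 0 and EPF1 and FAMA left of it.

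Marker lists of other cell types were read beside these genes. Of the 7 mesophyll markers, all detected in both groups, 1 was called: the Rubisco gene RBCS1A was in 55 of 57 TMMp cells with ATMYC1 and 308 of 421 without it and differed by 2.25 ± 0.50 (SE, 7 plates; limma adjusted p = 0.00438). Over all genes tested, 2.47% were called higher. RBCS3B, LHCB1.1, LHCB1.2, LHCB2.1 and LHCA1 differed by 0.44, 0.74, 0.87, 0.65 and 0.15, and CA1 went the other way, by -0.31 (limma adjusted p from 0.0905 to 0.923). The summed mesophyll level per plate ran from 1571 to 5086 TPM in cells with ATMYC1 and from 982 to 1757 TPM in matched cells, higher on 7 of 7 plates. A sum of TPM is weighted to the genes with the highest levels and does not show a rise of the whole list. The part of this in the other differences was not tested. The 5 guard cell markers summed to 0 to 2769 TPM in cells with ATMYC1 and 25.8 to 1309 TPM in matched cells, higher in cells with ATMYC1 on 1 of 7 plates, and neither of the 2 tested was called. Of the 5 vascular markers APL and VND7 were at 0 in all TMMp cells, PXY and ATHB8 were also at 0 in cells with ATMYC1, and SUC2 was in 9 of 57 cells with ATMYC1 and 14 of 421 without. The list summed to 0 to 315 TPM in cells with ATMYC1 and 0 to 23.0 TPM in matched cells, higher on 5 of 7 plates. Of the 6 trichome markers MYB23 was at 0 in all TMMp cells, the others were in 1 or 2 of 57 cells with ATMYC1 each, and the list summed to 0 to 17.3 TPM in cells with ATMYC1 and 0 to 1.28 TPM in matched cells, higher on 4 of 7 plates.

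By stage class, ATMYC1 had its highest share in SPCH cells, although no class passed the test after adjustment. Each cell was put in the first class that fitted, in the order FAMA, MUTE or EPF1, SPCH, MYB60, POLAR, PDF1 and none of these. ATMYC1 was in 22 of 52 cells of the SPCH class (42.3%, interval 28.7 to 56.8%), in 4 of 22 of the MYB60 class, 18 of 103 of the PDF1 class, 4 of 54 of the POLAR class, 3 of 46 of the MUTE or EPF1 class, 3 of 55 of the FAMA class (5.45%) and 3 of 146 of the cells with none of these genes (2.05%). In the SPCH class the plates gave 3 of 7, 9 of 13, 3 of 5, 3 of 10, 2 of 6, 2 of 6 and 0 of 5 cells on TMM-1 to TMM7, so plate TMM7 stood below the rest. The SPCH class lay 30.2 ± 22.9 percentage points above all other TMMp cells of the same plates (SD, n = 7 plates; exact sign-flip permutation test, two-sided, p = 0.0313, adjusted p = 0.0729 over 7 classes), higher on 6 of 7. The FAMA class differed from the others by -8.72 points and the cells with none of the genes by -13.8 points, each lower on 7 of 7 plates (exact p = 0.0156, the smallest that 7 plates can give, adjusted p = 0.0547). For the other 4 classes the adjusted exact p ran from 0.153 to 0.609. The classes differed in detected genes, with medians of 3789 in the SPCH class, 4308 in the FAMA class and 2109 in the cells with none of the genes.

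**Figure D4:**
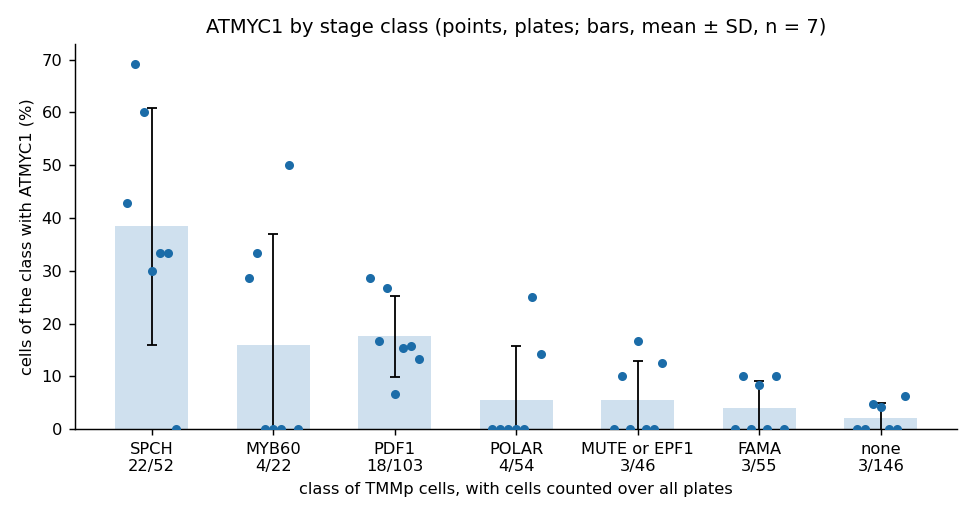
Share of TMMp cells with ATMYC1 in each stage class; points are plates, bars and error bars are the mean and SD over 7 plates (error bars cut at 0), and the fractions are cells with ATMYC1 over all cells of the class. The SPCH class averages 38.4% over plates and the FAMA class 4.05%.

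The cells with ATMYC1 were not of a single kind. Besides the 22 in the SPCH class, 18 held PDF1 but no later class gene, and 51 of 57 held BASL, SPCH or PDF1. PDF1 alone was in 51 of 57, and 233 of 421 cells without ATMYC1 (55.3%) held BASL, SPCH or PDF1. TMM was detected in 53 of the 57. ATMYC1 had a median of 252 TPM in the 24 cells with SPCH and 200.2 TPM in the 33 without it, and 257 TPM in the 21 with BASL and 200.0 TPM in the 36 without it. In the 15 cells with TCL2 it had a median of 326 TPM, against 200.0 TPM in the 42 without. These quartile ranges overlapped, and cells with SPCH also had more detected genes, a median of 5180 against 3168. BASL, TCL2 and MYB16 were all present in 5 of 57 cells with ATMYC1 and 0 of 421 without it. These genes were put together after they were called, and each passed the 5% filter only through cells with ATMYC1. That count is a description, and its groups were not matched on detected genes.

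**Figure D5:**
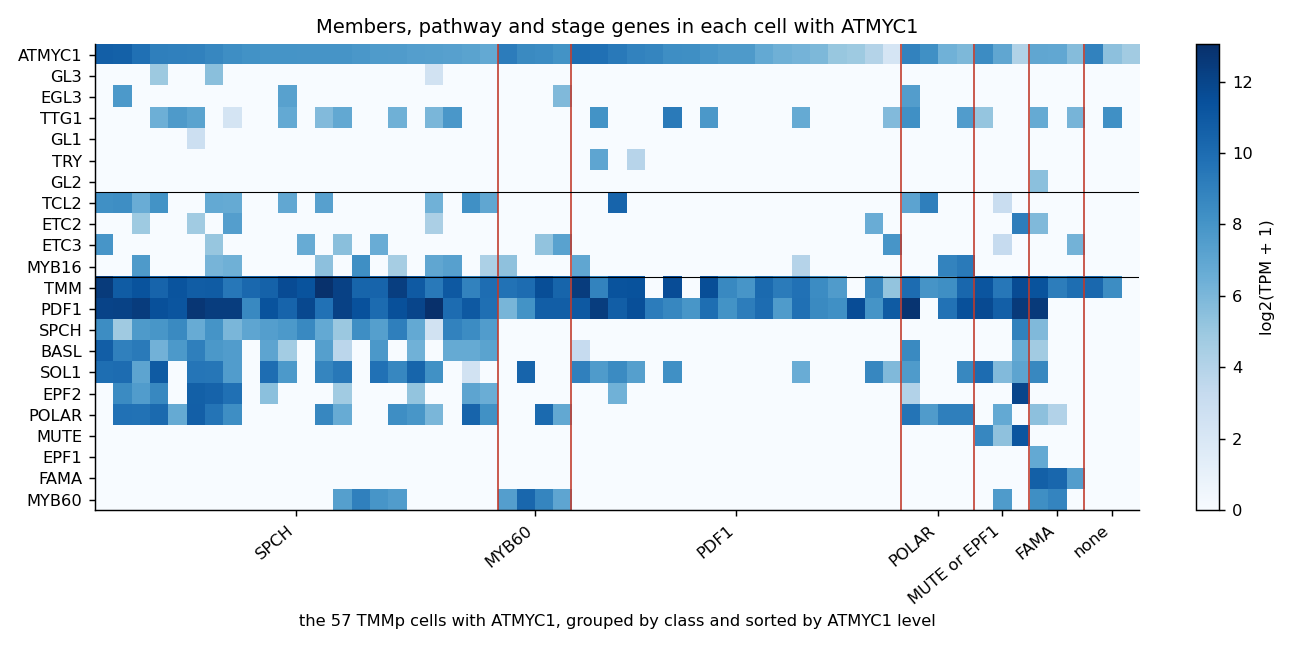
Level, as log2(TPM + 1), of ATMYC1, the members detected beside it, 4 pathway genes and 11 stage genes in each of the 57 TMMp cells with ATMYC1, in columns grouped by class and sorted by ATMYC1 level. TTG1 is scattered over 21 columns, GL3, EGL3, GL1, TRY and GL2 over 11, and BASL fills much of the SPCH class.

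Over the 478 TMMp cells the genes most like ATMYC1 were named from the correlation of log2(TPM + 1), centred by plate, among the 13175 genes. The correlations are a description across cells that share plates and differ in detected genes. The highest was AT1G06360, annotated as a fatty acid desaturase family protein, with Pearson r = 0.54, followed by BASL (0.45), AT2G37600, a ribosomal protein L36e (0.42), DRB3, a double-stranded RNA-binding protein (0.41), TCL2 (0.40) and AT5G47380, of unknown function (0.40). CYCD6;1, a D-type cyclin known from formative divisions of the root (0.39), F8H, annotated as a glucuronosyltransferase (0.38), AT4G16141, a GATA-type zinc finger gene (0.38), and AT3G61310, an AT-hook gene (0.38), completed the first 10. With detected genes taken out, AT1G06360 (0.52) and BASL (0.43) kept the first and second place. SPCH ranked 86th (0.30), MYB16 84th (0.30) and TTG1 8053rd (0.02). BASL, TCL2, DRB3, CYCD6;1, AT3G61310 and MYB16 were in 13, 13, 19, 14, 16 and 11 of 421 cells without ATMYC1. Each was under 5% there and passed the 5% filter only through cells with ATMYC1. The filter thus favoured a positive correlation for them.

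AT1G06360 was also the gene with the smallest p among those higher in ATMYC1 cells. It was in 54.4% of cells with ATMYC1 and 5.46% of those without, and it differed by 4.27 ± 0.53 (SE, 7 plates; limma adjusted p = 8.19e-07), higher on 7 of 7 plates, with an adjusted p of 0.0684 when every detected gene was tested. The others of the first 10 were AT2G37600 (4.08), AT4G23670, of the polyketide cyclase family (3.31), the plasma membrane aquaporin gene PIP3 (3.65), AT4G16141 (2.93), the glycine-rich protein gene AT4G29020 (3.35), AT5G60670, a ribosomal protein L11 (3.32), the tonoplast aquaporin gene TIP2 (2.73), PDF1 (3.12) and AT1G74270, a ribosomal protein L35Ae (3.10), each higher on 7 of 7 plates. Genes with ribosomal protein in the product name, a group formed after these were seen, had 89 higher and 1 lower among 297 tested, beside 2.47% higher and 2.82% lower over all genes. Since members of this group chose it, the count is a description.

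Among the lower genes AT2G31945, an uncharacterised protein, had the smallest p. It was in 15.8% of cells with ATMYC1 and 61.8% of those without, and it fell by 5.12 ± 0.60 (SE, 7 plates; limma adjusted p = 4.28e-07), lower on 7 of 7 plates, with an adjusted p of 0.0684 when every detected gene was tested. The thionin-like gene AT1G25275 differed by -4.20, the cytochrome P450 gene CYP81D8 by -4.31, the stress and senescence transcription factor gene WRKY6 by -3.98 and AOC1, an enzyme of jasmonate synthesis, by -3.74. AT1G21010 (-3.70), AT2G47485 (-3.14), the transporter gene ABCG1 (-3.39), the UDP-sugar epimerase gene UGE3 (-3.23) and the choline kinase gene CK1 (-3.52) made up the first 10, none higher on any plate.

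Sorter readings of the same cells were compared in 7 channels, and no channel passed after adjustment. The FITC-A channel, in which YFP is usually read, averaged 11.30 on the log2 scale in cells with ATMYC1 and 10.95 in matched cells, a difference of 0.35 ± 0.23 (SD, n = 7 plates; exact sign-flip permutation test, two-sided, p = 0.0156, adjusted p = 0.109 over 7 channels), higher on 7 of 7 plates. That p is the smallest that 7 plates can give, so a channel at it on its own could not pass over 7 channels. Against all cells without ATMYC1, FITC-A differed by 0.38, side scatter area by 0.30 and side scatter height by 0.29 (exact adjusted p = 0.0365 each). Side scatter area differed by 0.19 (exact adjusted p = 0.219), and the 3 forward scatter channels, a reading related to size, by -0.00497 to 0.0215 (exact adjusted p = 0.828 each).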

How the data were processed

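Smart-seq2 libraries of 621 cells were analysed, grouped by transgene, pool and plate from the labels; 4 samples of 10X data were not analysed here. The deposited tables give TPM per gene and cell, as named in the file headers, and each cell summed to between 999559 and 1000090. The submitters' processing notes name TAIR10 and Cell Ranger with no role; the program that made the TPM values is not given in the sources used here. Sorter readings, a signal per channel, were deposited by the authors in a separate table and put on a log2 scale here. The number of cell pairs with identical values was 0.

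TPM values were analysed as log2(TPM + 1), a scale that understates the change of low genes. Genes detected (1 TPM or more) in at least 5% of TMMp cells were tested. This filter counted the cells with ATMYC1. A gene in under 5% of the cells without ATMYC1 could thus enter only by being more frequent in the cells with it. For each plate with at least 3 cells with ATMYC1, the mean over these cells was set against the mean over 3 matched cells each (137 cells in use, matched on detected genes: a mean of 3814 beside 4007 in cells with ATMYC1), in limma 3.58.1 (R 4.3.3) with plate as a term and a mean trend. P-values were adjusted by Benjamini-Hochberg over all genes tested, with a threshold of 0.05. ATMYC1 defined the groups and was not tested. Class shares and sorter channels were tested by exact sign-flip permutation over plates (smallest p 0.0156), and intervals are Clopper-Pearson at 95%. The code was tested on simulated data, made by raising genes in randomly drawn TMMp cells. The raised genes were more frequent than BASL, TCL2 or MYB16, so that test does not cover calls of such rare genes. Correlations, figures and promoter searches used Python 3.11.15 with scipy 1.17.1, and promoters came from RefSeq TAIR10.1, in which 32548 of the 32833 genes were found.

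The members and gene lists were chosen with earlier results of these data known, and patterns already seen there are no independent support. Genes are named if they are a member, a stage gene, a called pathway gene or one of the 5 largest differences among the other pathway genes, one of the 10 smallest p in each direction or one of the 10 highest correlations. Genes below the filter, and in the counts of cells, are named beside these.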

Additional observations from a re-analysis of the deposited data

How the results depend on the processing

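Of the results that answer a comparison, 135 alternative values kept their direction, side of the threshold and size, 15 moved, 3 became stronger and 9 changed sign. The ATMYC1 line difference of 4.92 was 7.07 with a pseudocount of 0.1 and 0.96 as a mean of log2 values over cells. With pool number as a replicate block it stayed at 4.92; no label says that pool numbers pair the lines, and pool 1 minus pool 2 correlated between the lines at r = 0.05 across genes. Leaving out a pool gave 4.52 to 5.32. Leaving out plate ML2 (4.92) or TMM-2 (10.6% of cells) was chosen after seeing the data.

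Genes called in cells with ATMYC1 numbered 1355 higher against all cells of a plate without it, and 322 of the 325 were among them. With every detected gene tested, 0 were called in either direction by limma (lowest adjusted p 0.0584, with 2981 at an unadjusted p under 0.05). Leaving out a plate gave 119 to 332 higher and 149 to 368 lower, with the fewest without TMM-2. Without pool 1 the counts were 54 higher and 76 lower, and without pool 2 they were 29 higher and 57 lower, with fewer plates in the fit. Leaving out a plate, the MYB60 class ran from -1.15 to 7.38 points and changed sign without TMM6. It moved the sorter channels FSC-A from -0.0137 to 0.0534, FSC-H from -0.00410 to 0.0561, FSC-W from -0.0117 to 0.00350 and SSC-W from -3.48e-05 to 0.0120, all across 0. Against all cells without ATMYC1, FITC-A (0.38), SSC-A (0.30) and SSC-H (0.29) passed (exact adjusted p = 0.0365).

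Of the called named genes' alternative values 340 kept their call and 55 lost it. TTG1, not called in any of its 15 alternatives, changed sign in 2 of them. It was 0.24 against all cells and -0.47 to 0.0110 without a plate. TPM gives no depth, and whether members found in under 5% of cells were missed or absent in the others was not tested.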

Other observations

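The anthocyanin genes DFR, LDOX, PAP1 and PAP2 and the MYB gene WER were found in a few ATML1p cells and were listed at 0 in all 478 TMMp cells, where the exact interval allows up to 0.769% for each. DFR and LDOX, enzymes of anthocyanin synthesis, were in 0 TMMp cells against 2 and 3 of 143 ATML1p cells. A cell of plate ML1-5 held DFR at 3021 TPM, LDOX at 753 TPM and the MYB activator PAP1 at 56.8 TPM, with TTG1 at 75.9 TPM. A cell of plate ML1-7 held DFR at 3213 TPM, LDOX at 2485 TPM and PAP2, the relative of PAP1, at 75.2 TPM, with TTG1 at 101 TPM. ATMYC1 was listed at 0 in both. WER, the R2R3 MYB of the root epidermis, was in 0 TMMp cells against 2 ATML1p cells, and 1 of these, on plate ML1, also held MYB23 at 45.2 TPM and CPC at 72.3 TPM.

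Of the 9 TMMp cells with CPC, none had ATMYC1, 1 had BASL (287 TPM) and 1 had SPCH (27.1 TPM).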
